A study of Mus musculus with 55 samples.

Results

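Solute carriers are membrane proteins that move amino acids, sugars, nucleosides, metals, ions, carboxylates and vitamins across the plasma membrane, the inner mitochondrial membrane and the membranes of other organelles. The genes described here were taken from 2 CEL-seq tables by their symbol, which had to begin with Slc, a family number, the letter a and a member number. Slc2a1 and Slc2a3 were left out, and a gene needed at least 40 counts summed over the 8 epiblast stem cell (EpiSC) libraries or over the 9 tailbud libraries. This gave 163 genes of 16439 in either table, out of 284 that match the symbol pattern. The minimum was reached in EpiSCs by 158 and in tailbuds by 103, with 98 reaching it in both, 60 in EpiSCs only and 5 in tailbuds only. Just inside it lay Slc17a5, Slc22a15 and Slc2a8 with 40 counts each in EpiSCs and Slc39a5 with 40 in tailbuds, and just outside it Slc41a3 with 39 and Slc27a2 with 38 in EpiSCs. The genes were selected on their summed counts over all libraries of a table, so a gene being present is not a result.

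The symbol does not always name a transporter. 5 of the 163 are something else, among them the scaffold proteins Slc9a3r1 and Slc9a3r2, the adaptor Slc4a1ap and the pseudogene Slc2a4rg-ps. The other genes were sorted into 11 substrate classes. The mitochondrial carriers held 34 genes, amino acid and peptide transporters 31, metal and heme transporters 25 and transporters of inorganic ions 23. Vitamin, choline and cofactor transporters held 10, lipid, bile acid and organic ion transporters 8, and sugar and nucleotide sugar transporters 7 each. Monocarboxylate and nucleoside transporters held 5 each, and neurotransmitter and vesicular transporters 3.

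The series holds 55 mouse samples around the Cdx and T (Brachyury) transcription factors of the progenitors that build the trunk and tail, and 17 of them are the CEL-seq libraries used here. EpiSCs are pluripotent lines, here derived from pre-streak embryos, grown with Fgf-basic and Activin A and kept from Wnt signalling by the inhibitor IWP2 (2 µM). The groups were Null EpiSCs at 24h, Null EpiSCs at 0h, WT EpiSCs at 24h and WT EpiSCs at 0h, with 2 libraries each. At 24h IWP2 had been withdrawn and the cells had been given 3 µM Chiron, a GSK3 inhibitor that activates Wnt signalling, together with 120 ng/mL Fgf8. No untreated 24h group was analysed here, so the withdrawal, Chiron, Fgf8 and time in culture cannot be told apart. The growth text for the Null line names CdxKO embryos and also cells null for Wnt3, and it does not list the alleles. Tailbuds were dissected at E8.0 from Triple, Cdx1-4 and WT embryos, with 3 libraries each, named green 1, blue 1 and blue 2 and given in that order below. The labels spell out neither the genotypes nor what the colours mean, nor do they say whether libraries came from separate cultures or embryos. The p-values therefore measure the spread between these libraries, which may be technical.

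The EpiSC libraries held 1114055 to 2914870 counts and the tailbud libraries 389601 to 854852. A floor of 3 counts in 1 library corresponds to 1.04 to 2.69 CPM (counts relative to the scaled total of a library) in EpiSCs and 3.53 to 7.84 CPM in tailbuds, which covers counting error only. CEL-seq counts the 3′ ends of transcripts, so a CPM is a share of transcript ends and is not divided by gene length. Epiblast markers summed to 283 and 320 CPM in Null and 262 and 271 CPM in WT cells at 24h, against 1629 and 1383 CPM in Null and 989 and 943 CPM in WT cells at 0h. Streak markers summed to 1256 and 1287 CPM in Null and 1107 and 822 CPM in WT cells at 24h, against 43.3 and 35.9 CPM in Null and 91.4 and 95.6 CPM in WT cells at 0h. The part of this change of state in the solute carrier values at 24h was not tested. In tailbuds Cdx4 was at 0 in all Triple libraries and at 0, 1 and 0 counts in Cdx1-4, against 38.8, 40.6 and 46.2 CPM in WT. In EpiSCs Cdx2 had 10.3 and 12.6 CPM in Null at 24h, against 30.1 and 13.3 CPM in WT at 24h. It had 0 and 5.39 CPM in Null at 0h, against 3.19 and 2.83 CPM in WT at 0h. Counts of 3′ ends may lie outside a deleted stretch, and so do not test the label of the Null line. All libraries are bulk samples, in which fewer cells of a type and less RNA per cell cannot be told apart.

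Cells take up most amino acids through a small number of families. Slc7a1 and Slc7a3 carry the cationic amino acids arginine and lysine. The Slc7 light chains named below work only when joined to the glycoprotein Slc3a2. Slc38 proteins import glutamine and alanine with sodium, and Slc1a5 exchanges glutamine and other neutral amino acids. Slc16a1 and Slc16a3 move lactate and pyruvate with a proton, and Slc16a3 is known as the form of highly glycolytic cells. Slc39 proteins bring zinc, iron or manganese into the cytosol, Slc30 proteins move zinc out of it, and Slc25 proteins exchange metabolites across the inner mitochondrial membrane.

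Promoter sequences are shown for 3 members whose values carry the results below: the lactate carriers Slc16a1 and Slc16a3, which moved in opposite directions at 24h in Null cells, and Slc38a4, the member with the largest rise. Each is the 250 bases before the first listed start, from RefSeq on GRCm38.p6, read 5′ to 3′ on the gene's strand. For Slc16a3 that start lies inside the annotated gene, which begins at 120948484, so its stretch is not upstream of the whole gene. Capitals mark matches on either strand to ACGTG, the core bound by hypoxia-inducible and related factors, or to TCACACC, a T-box core.
Slc16a1 (chr3:104638414-104638663, + strand): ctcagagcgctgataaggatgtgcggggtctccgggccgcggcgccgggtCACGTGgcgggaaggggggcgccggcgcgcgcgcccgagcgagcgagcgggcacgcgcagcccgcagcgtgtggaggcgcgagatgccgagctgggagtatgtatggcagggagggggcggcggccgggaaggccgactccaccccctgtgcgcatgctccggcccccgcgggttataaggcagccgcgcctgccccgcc
Slc16a3 (chr11:120948817-120949066, + strand): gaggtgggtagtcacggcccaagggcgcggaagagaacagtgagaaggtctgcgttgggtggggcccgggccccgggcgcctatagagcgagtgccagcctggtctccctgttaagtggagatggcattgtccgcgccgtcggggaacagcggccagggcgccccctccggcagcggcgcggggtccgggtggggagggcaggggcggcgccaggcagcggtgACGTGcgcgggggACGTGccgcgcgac
Slc38a4 (chr15:97055957-97056206, - strand): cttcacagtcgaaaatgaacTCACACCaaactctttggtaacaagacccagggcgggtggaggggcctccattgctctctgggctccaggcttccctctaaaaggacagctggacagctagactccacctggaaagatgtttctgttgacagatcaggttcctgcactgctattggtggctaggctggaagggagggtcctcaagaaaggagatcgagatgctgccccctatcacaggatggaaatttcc
The CACGTG in Slc16a1 is a palindrome and counts as 2 overlapping ACGTG matches, and Slc16a3 holds 2 separate ones. ACGTG was found in 21.6% of 171 start sites of members, against 16.6% of all 32851 start sites in the table. TCACACC was found in 4.68% of members' start sites against 3.33% of all, and the TCF/LEF core CTTTGAT in 4.68% against 3.21%. The Cdx core TTTATNG was found in 3.51% against 9.81%. Of the 163 members, 124 had at least 1 start site in the table. Promoters of Slc39a8, a metal transporter with results below, were scanned in the same way and are not shown. Slc39a8 held no match at listed start 1, and 2 overlapping matches to the hypoxia core at start 2. Slc38a4 held a T-box match at listed starts 1 and 2 and no match at start 3. The sequences shown are thus not a full picture of the members scanned. A match is a run of letters and not a bound site.

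The classes differed widely in summed level. Mitochondrial carriers summed to 2754 ± 67.3 CPM in Null and 2882 ± 46.6 CPM in WT cells at 24h, against 3017 ± 43.6 CPM in Null and 3010 ± 14.3 CPM in WT cells at 0h (SD, n = 2 each). Amino acid transporters came next with 1840 ± 86.4 CPM in Null and 2248 ± 147 CPM in WT cells at 24h, against 2357 ± 12.5 CPM in Null and 2402 ± 158 CPM in WT cells at 0h. Metal transporters lay between 678 and 752 CPM in all 4 groups and inorganic ion transporters between 465 and 536 CPM. Over all transporters the sum was 6555 ± 187 CPM in Null cells at 24h and 7376 ± 40.9 CPM in Null cells at 0h. It was 7157 ± 34.3 CPM in WT cells at 24h and 7564 ± 161 CPM in WT cells at 0h. In tailbuds the sum was 5650 ± 278 CPM in Triple, 5448 ± 145 CPM in Cdx1-4 and 5607 ± 66.3 CPM in WT (SD, n = 3 each). The tables were scaled separately, so levels are compared only within a table. These sums are descriptions and were not tested. The 3 neurotransmitter and vesicular transporters were near the floor, with 6.19 to 14.8 CPM summed in EpiSC groups and 0.555 to 2.02 CPM in tailbud groups, and none passed the filter on low counts.

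**Figure D1:**
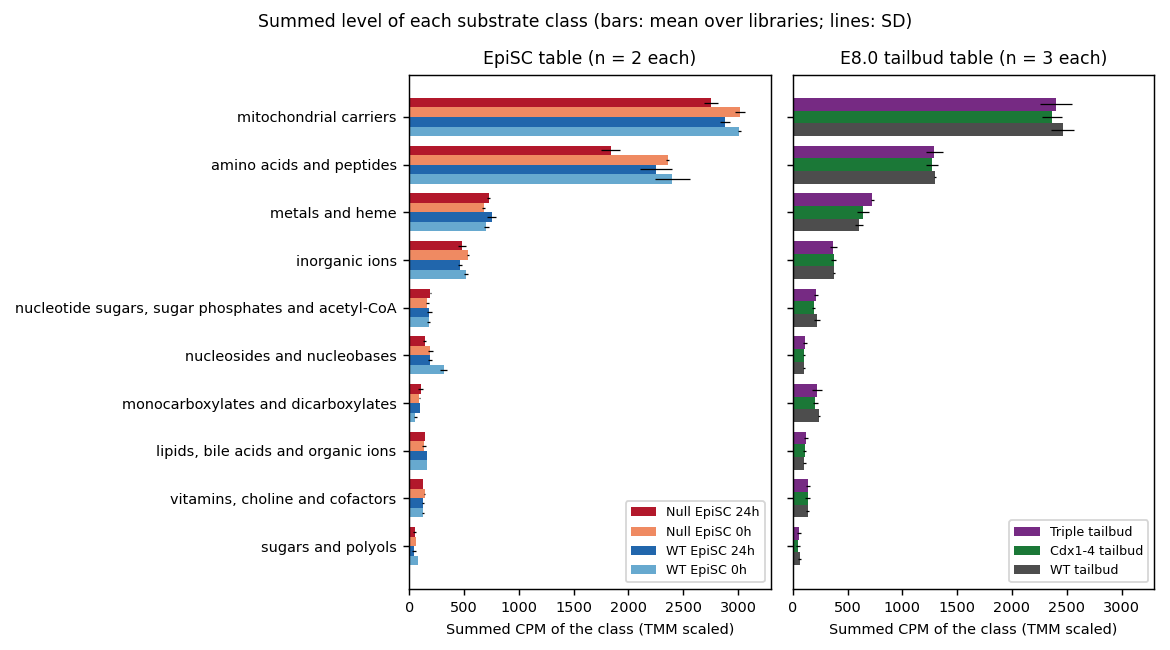
Summed CPM (horizontal axis, linear) of the members of 10 substrate classes in EpiSCs (left) and E8.0 tailbuds (right); bars are means over 2 or 3 libraries and lines SD. Mitochondrial carriers and amino acid transporters stand far above the other classes in every group, and nucleoside transporters in WT cells at 0h reach 314 CPM against 139 to 193 CPM in the other EpiSC groups.

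Of the 163 members, 135 passed the filter on low counts in EpiSCs, 65 in tailbuds, 62 in both and 25 in neither. In the 24h response of Null cells 15 members were higher and 16 lower at an adjusted p below 0.05, which is 23.0% of those tested against 18.6% of all 9703 genes (9.18% higher and 9.44% lower). In that of WT cells 7 were higher and 16 lower, so 23 of 135, against 16.8% of all genes (8.19% higher and 8.63% lower). The shares therefore lay near the background, and the median log2 difference was 0.0054 for members and 0.0102 for all genes in Null, and 0.048 and -0.0083 in WT. In Null against WT cells at 24h 2 members were higher and 13 lower, 11.1% of members against 8.05% of all genes. For lower calls alone the share was 9.63% against 4.35%, and for higher calls 1.48% against 3.7%. At 0h 4 were higher and 5 lower, 6.67% of members and 6.67% of all genes (3.32% higher and 3.35% lower). The median was -0.0043 for members and 0.0034 for all genes at 24h, and -0.0981 and -0.013 at 0h. DESeq2 called fewer members in each: 16 in the Null response, 12 in the WT response, 5 in Null against WT at 24h and 6 at 0h. No called member had overlapping libraries, which with 2 libraries per group adds no support to the calls. Members that were not called, such as Slc38a2 in both responses, were separated too. In total 51 members were called in at least 1 of these 4 comparisons. The matching share of all 9703 genes is not given here, so the 51 cannot be read against a background.

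**Figure D2:**
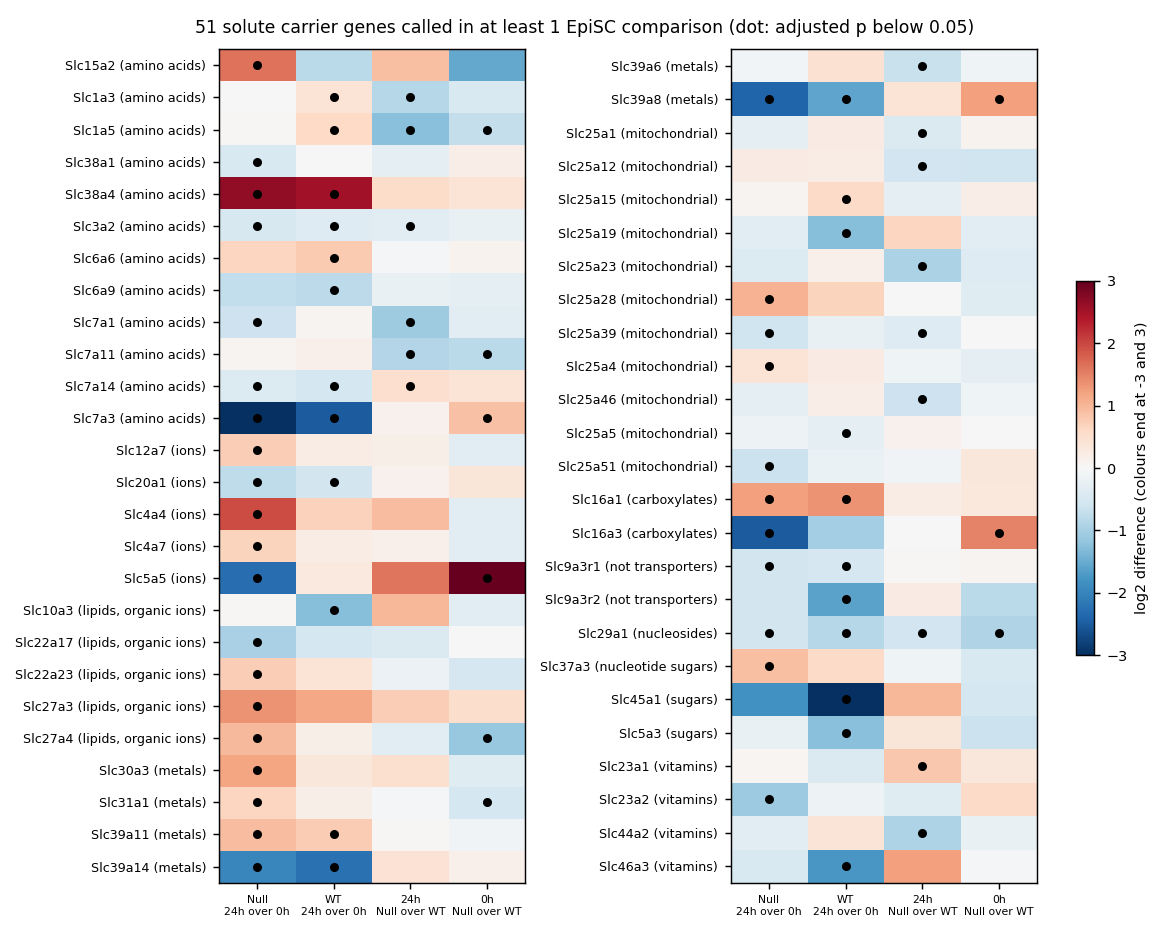
Log2 differences (colour, ending at -3 and 3) of the 51 members called in at least 1 of 4 EpiSC comparisons (columns), with a dot where the adjusted p was below 0.05. Slc29a1 carries a dot in all 4 columns, and Slc7a3, Slc39a14, Slc39a8, Slc38a4 and Slc16a1 carry one in both 24h columns.

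Amino acid transporters held 27 tested members. In Null cells 2 were higher and 5 lower at 24h, and in WT cells 4 higher and 4 lower. The cationic amino acid transporter Slc7a3 (GRCm38.p6 chromosome X, 101079146 to 101090452) had the lowest adjusted p of all members. It had 24.1 and 43.2 CPM in Null cells at 24h, against 297 and 324 CPM in Null cells at 0h, which is -3.25 ± 0.17 on the log2 scale (SE, edgeR adjusted p = 3.14e-16). WT cells had 27.7 and 33.6 CPM at 24h, against 175 and 162 CPM at 0h, a difference of -2.49 ± 0.18 (adjusted p = 4.04e-13). All 4 libraries at 24h lay below all 4 at 0h. At 0h Null cells were above WT cells by 0.88 ± 0.14 (adjusted p = 6.16e-05), with no overlap, and at 24h the difference of 0.12 was not called (adjusted p = 0.814). In tailbuds Slc7a3 was too low to test, with 14 to 20.9 CPM in Triple, 5.21 to 14 CPM in Cdx1-4 and 2.54 to 14.6 CPM in WT.

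Slc7a1, the widely expressed transporter of the same amino acids, behaved otherwise. It had 104 and 108 CPM in Null cells at 24h and 149 and 181 CPM in Null cells at 0h, against 240 and 200 CPM in WT cells at 24h and 204 and 213 CPM in WT cells at 0h. The fall of -0.63 ± 0.14 in Null cells was called (adjusted p = 0.00127), and lost that call without Null 0h replicate 2 (adjusted p = 0.0517). WT cells differed between the times by 0.09 (adjusted p = 0.712). At 24h Null lay below WT by -1.06 ± 0.13 (adjusted p = 9.81e-07), with no overlap. The difference between both responses was -0.72 ± 0.19, the lowest adjusted p of any member for that test (0.0769), which did not pass.

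The sodium-coupled importer Slc38a4 (chromosome 15, 96994816 to 97055956), an imprinted gene, was near the floor at 0h and rose in both lines. Null cells had 15.8 and 22.6 CPM at 24h, against 3.77 and 1.8 CPM at 0h, a difference of 2.65 ± 0.49 (adjusted p = 0.000123). WT cells had 10.4 and 16.5 CPM at 24h, against 3.19 and 1.13 CPM at 0h, a difference of 2.51 ± 0.50 (adjusted p = 0.000381). Both lines were higher at 24h in every library, and tailbuds held it at 56.2 to 81 CPM in Triple, 63.8 to 101 CPM in Cdx1-4 and 78.7 to 87 CPM in WT. Its relative Slc38a1 was called in Null cells, by -0.45 ± 0.15 (adjusted p = 0.0294), with 87.7 and 83.7 CPM at 24h against 126 and 107 CPM at 0h, and lost the call under 4 of 13 alternative settings, DESeq2 among them. The peptide transporter Slc15a2 had 7.88 and 11.3 CPM in Null cells at 24h, against 1.88 and 4.49 CPM in Null cells at 0h. That difference of 1.64 ± 0.56 was called (adjusted p = 0.0381), but not under 5 of 13 alternatives, which were DESeq2, thinning and 3 of the leave-outs (adjusted p up to 0.377). The difference of -0.80 in WT cells was not called (adjusted p = 0.253).

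Slc1a5 and the glutamate and aspartate transporter Slc1a3 were both lower in Null than in WT cells at 24h. Slc1a5 (chromosome 7, 16781334 to 16798274) had 128 and 122 CPM in Null and 352 and 241 CPM in WT cells at 24h, a difference of -1.26 ± 0.14 (adjusted p = 1.1e-07). At 0h it had 117 and 127 CPM in Null and 213 and 187 CPM in WT cells, a difference of -0.72 ± 0.15 (adjusted p = 0.00246), lost without replicate 1 of either line at 0h. The Null libraries thus lay below the WT libraries at both times. Slc1a5 did not move in Null cells past the test (0.04, adjusted p = 0.894) and was higher at 24h in WT cells by 0.59 ± 0.13 (adjusted p = 0.00169), a call that was lost without WT 24h replicate 1 (adjusted p = 0.218) and without WT 0h replicate 2. The difference between these responses was -0.54 and did not pass (adjusted p = 0.308). Slc1a3 had 91.1 and 92.4 CPM in Null and 153 and 181 CPM in WT cells at 24h, a difference of -0.86 ± 0.14 (adjusted p = 6.7e-05). At 0h it had 91.7 and 92.5 CPM in Null and 134 and 116 CPM in WT cells, which was not called.

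Slc3a2, the shared heavy chain, was the most abundant amino acid transporter gene of the EpiSCs on the scale of transcript ends. It had 408 and 431 CPM in Null cells at 24h against 605 and 568 CPM in Null cells at 0h, a difference of -0.49 ± 0.10 (adjusted p = 0.000673). WT cells had 539 and 508 CPM at 24h against 727 and 652 CPM at 0h, a difference of -0.40 ± 0.10 (adjusted p = 0.00427), which was lost without WT 0h replicate 1 (adjusted p = 0.104). Its light chains were far less abundant. Slc7a5, which carries large neutral amino acids, had 9.51 to 22.3 CPM over the 8 libraries, Slc7a6 23.7 to 36.1 CPM and Slc7a7 12.8 to 24.7 CPM, and none of these was called in any comparison. Slc7a11, the cystine and glutamate exchanger, was lower in Null cells. It had 22.7 and 29.2 CPM in Null and 50.8 and 41.8 CPM in WT cells at 24h (-0.88 ± 0.22, adjusted p = 0.00779), and 20.7 and 28.7 CPM in Null and 45.7 and 39 CPM in WT cells at 0h (-0.81 ± 0.24, adjusted p = 0.0332). Both calls were lost under 4 of the 13 alternative settings, and no tailbud library held a count of it.

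Other amino acid transporters moved less. Slc6a6, the taurine transporter, was higher in WT cells at 24h with 57.4 and 45.6 CPM against 32.4 and 28.3 CPM at 0h (0.79 ± 0.22, adjusted p = 0.0112). Slc6a9, a glycine transporter, was lower in WT cells with 21.1 and 17.1 CPM at 24h against 31.4 and 36.2 CPM at 0h (-0.79 ± 0.23, adjusted p = 0.0159). Each of these calls was lost under 4 of 13 alternatives, with DESeq2 and thinning among them. In Null cells Slc6a6 had 59.6 and 41.2 CPM at 24h against 40.8 and 22.5 CPM at 0h (0.64, edgeR adjusted p = 0.0587). There Slc6a9 had 14.3 and 19.9 CPM at 24h against 28.9 and 26.9 CPM at 0h (-0.74, edgeR adjusted p = 0.0545). Neither was called, but both went the same way as in WT cells and lay close to the threshold. Slc7a14, a lysosomal member of the cationic family, was lower at 24h in both lines. It was the 1 amino acid member called higher in Null than in WT cells at 24h. It had 193 and 249 CPM in Null and 161 and 146 CPM in WT cells at 24h (0.51 ± 0.13, adjusted p = 0.0129), a call lost under 3 of 13 alternatives. Its fall in Null cells was lost under 4, DESeq2 included, and its fall in WT cells without WT 0h replicate 1.

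**Figure D3:**
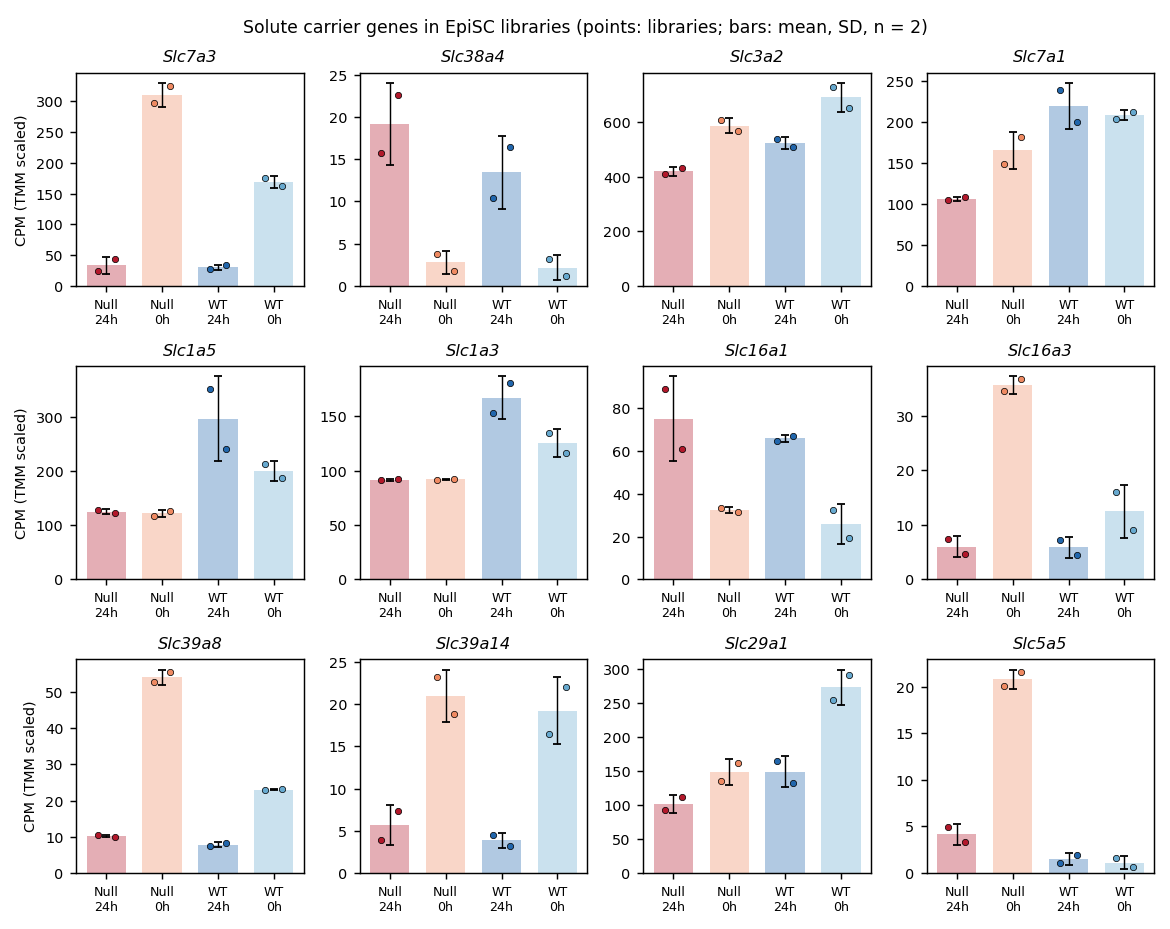
CPM (vertical axes, linear, each from 0) of 12 solute carrier genes in the 4 EpiSC groups; points are libraries, bars means and lines SD (n = 2). Slc7a3, Slc39a8 and Slc39a14 fall at 24h in both lines, Slc38a4 and Slc16a1 rise in both, and Slc7a1, Slc1a5 and Slc1a3 are lower in Null than in WT at 24h.

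The lactate carriers Slc16a1 (chromosome 3, 104638664 to 104658462) and Slc16a3 (chromosome 11, 120948484 to 120959000) moved in opposite directions in Null cells. Slc16a1 had 89.2 and 61.1 CPM in Null cells at 24h, against 33.3 and 31.4 CPM in Null cells at 0h, a difference of 1.23 ± 0.22 (edgeR adjusted p = 7.62e-05). WT cells had 64.7 and 67.2 CPM at 24h, against 32.4 and 19.2 CPM at 0h, a difference of 1.34 ± 0.22 (adjusted p = 1.71e-05). All 4 libraries at 24h lay above all 4 at 0h. Slc16a3 had 7.39 and 4.65 CPM in Null cells at 24h against 34.5 and 36.8 CPM in Null cells at 0h, a difference of -2.51 ± 0.34 (adjusted p = 9.68e-07). In WT cells it had 7.26 and 4.44 CPM at 24h against 15.9 and 9.05 CPM at 0h, and that difference of -1.01 ± 0.38 was not called (adjusted p = 0.0616). The libraries of both lines were separated by time, and the difference between the responses did not pass (-1.49 ± 0.53, adjusted p = 0.27). At 0h Null lay above WT by 1.49 ± 0.30 (adjusted p = 0.00132), a call lost without WT 0h replicate 2 (adjusted p = 0.0605). Slc16a1 made up 72.9% of the class sum in Null cells at 24h and 68.8% in WT cells at 24h, against 46.0% in WT cells at 0h. In Null cells at 0h Slc16a3 led with 39.0%. Slc16a3 overlaps Csnk1d in the RefSeq annotation, and the labels do not say whether counting used the strand. The same limit holds for other called members, among them Slc7a3 (overlapping Snx12), Slc5a3 (Mrps6), Slc31a1 (Fkbp15) and Slc6a9 (Ccdc24).

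Bsg and Emb encode the glycoproteins that bring these lactate carriers to the plasma membrane, and they belong to a list of partners and carriers named otherwise, of which 11 of 15 genes were tested. The list had 2 higher and 3 lower at 24h in Null cells and 2 higher and 1 lower in WT cells, with median differences of 0.14 and 0.053. Bsg had 302 and 306 CPM in Null cells at 24h against 221 and 260 CPM in Null cells at 0h (adjusted p = 0.0371). WT cells had 280 and 278 CPM of Bsg at 24h against 194 and 212 CPM at 0h, a difference of 0.46 ± 0.12 (adjusted p = 0.00442). Emb was lower at 24h, with 147 and 179 CPM in Null cells at 24h against 256 and 252 CPM at 0h, and 95.1 and 93.2 CPM in WT cells at 24h against 193 and 181 CPM at 0h. Both falls were called, by -0.65 in Null and -0.99 in WT cells, and Emb was higher in Null than in WT cells at 24h by 0.78 and at 0h by 0.44.

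Metal transporters held 21 tested members, of which 3 were higher and 2 lower at 24h in Null cells and 1 higher and 2 lower in WT cells. The falls were in the same genes, Slc39a8 and Slc39a14, which both import zinc, manganese and iron. Slc39a8 (chromosome 3, 135816882 to 135888572) had 10.3 and 9.97 CPM in Null cells at 24h, against 52.7 and 55.7 CPM in Null cells at 0h (-2.40 ± 0.26, adjusted p = 7.41e-09). WT cells had 7.26 and 8.24 CPM at 24h, against 22.9 and 23.2 CPM at 0h (-1.59 ± 0.29, adjusted p = 0.000101). At 0h all Null libraries were above all WT libraries, by 1.23 ± 0.22 (adjusted p = 0.000385). Slc39a14 had 3.94 and 7.31 CPM in Null cells at 24h, against 23.2 and 18.9 CPM in Null cells at 0h (-1.97 ± 0.39, adjusted p = 0.00025). WT cells had 4.5 and 3.17 CPM at 24h, against 16.5 and 22.1 CPM at 0h (-2.24 ± 0.38, adjusted p = 3.44e-05). Neither gene exceeded 10.3 CPM in a 24h library.

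Slc39a11, a zinc importer of the same family, was higher at 24h in both lines, by 0.93 ± 0.25 in Null cells (adjusted p = 0.00625) and 0.76 ± 0.22 in WT cells (adjusted p = 0.0134). It had 35 and 38.5 CPM in Null and 36.3 and 34.2 CPM in WT cells at 24h, against 18.8 and 19.8 CPM in Null and 19.7 and 22.1 CPM in WT cells at 0h. The call was lost under 2 of 13 alternatives in Null and 3 in WT cells, each time with DESeq2. The vesicular zinc transporter Slc30a3 was called in Null cells, with 44.8 and 31.9 CPM at 24h against 15.1 and 19.8 CPM at 0h (1.19 ± 0.28, adjusted p = 0.00221), and lost the call without Null 24h replicate 1 or Null 0h replicate 1. The copper importer Slc31a1 was also called there, with 120 and 115 CPM at 24h against 72.8 and 78.1 CPM at 0h (0.65 ± 0.15, adjusted p = 0.00206), and lost the call without Null 0h replicate 1 (adjusted p = 0.0547). In WT cells Slc31a1 had 115 and 132 CPM at 24h against 112 and 103 CPM at 0h, so it was the Null 0h libraries that stood below the rest. The zinc importer Slc39a6 was lower in Null than in WT cells at 24h, with 42.4 and 39.9 CPM in Null against 65.7 and 65.9 CPM in WT cells (-0.67 ± 0.18, adjusted p = 0.0135), which was lost under 5 of 13 alternatives. Tfrc, the receptor that takes up transferrin-bound iron and a gene of the partner list, was higher at 24h in both lines, by 0.81 in Null and 1.01 in WT cells.

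Of 19 tested transporters of inorganic ions, 3 were higher and 2 lower at 24h in Null cells, and 1 was lower in WT cells. The phosphate transporter Slc20a1 was the 1 shared call. It had 120 and 138 CPM in Null cells at 24h against 219 and 218 CPM in Null cells at 0h (-0.77 ± 0.13, adjusted p = 3.12e-05). WT cells had 112 and 122 CPM at 24h against 172 and 170 CPM at 0h (-0.55 ± 0.13, adjusted p = 0.00201), a call that was lost after thinning to equal library totals (adjusted p = 0.133). The sodium and iodide symporter Slc5a5 was seen above the floor in 1 line. Null cells had 4.93 and 3.32 CPM at 24h, from 10 and 5 counts, against 20.1 and 21.6 CPM at 0h, from 32 and 24 counts, which is a fall of -2.28 ± 0.44 (adjusted p = 0.000175). WT cells held 3 and 3 counts at 24h and 3 and 1 counts at 0h. Null was above WT at 0h (4.16 ± 0.56, adjusted p = 3.52e-06), and with so few counts in WT the size of that difference is poorly fixed. The bicarbonate cotransporters Slc4a7 (0.68, adjusted p = 0.0189) and Slc4a4 (1.96, adjusted p = 0.0111) and the potassium and chloride cotransporter Slc12a7 (0.74, adjusted p = 0.0415) were higher at 24h in Null cells. DESeq2 called none of these 3, and the calls were lost in all under 5 of 13 alternatives for Slc4a7, 4 of 12 for Slc4a4 and 4 of 13 for Slc12a7. In WT cells none of them was called.

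The nucleoside class was led by Slc29a1, the equilibrative nucleoside transporter of the plasma membrane (chromosome 17, 45585200 to 45599618), which was called lower in all 4 EpiSC comparisons. It had 92.1 and 111 CPM in Null cells at 24h and 135 and 162 CPM in Null cells at 0h, against 165 and 132 CPM in WT cells at 24h and 255 and 292 CPM in WT cells at 0h. The WT 0h libraries stood above all others, and the Null 24h libraries below all others. The response was -0.55 ± 0.15 in Null cells (adjusted p = 0.00909) and -0.86 ± 0.13 in WT cells (adjusted p = 7.07e-06). Null was lower than WT by -0.58 ± 0.14 at 24h (adjusted p = 0.00889) and by -0.89 ± 0.14 at 0h (adjusted p = 3.98e-05). The Null response lost its call without Null 24h replicate 1 or Null 0h replicate 2, and the comparison at 24h without Null 24h replicate 1 or WT 24h replicate 1. The gene made up 87.0% of the class in WT cells at 0h. None of the other 3 tested members was called.

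Facilitative glucose transporters Slc2a1 and Slc2a3 were outside the selection, and the remaining sugar transporters were scarce. Of 5 tested, none was called in Null cells and 2 were lower at 24h in WT cells. Slc5a3, which takes up myo-inositol, had 12.5 and 26.6 CPM in WT cells at 24h against 43.6 and 41.8 CPM at 0h (-1.25 ± 0.27, adjusted p = 0.00114), and lost the call without WT 24h replicate 1 (adjusted p = 0.158). In Null cells it had 28.6 and 16.6 CPM at 24h against 23.2 and 32.3 CPM at 0h, with overlapping libraries. Slc45a1, a proton-coupled sugar transporter, was called on 1 and 2 counts in WT cells at 24h against 12 and 15 counts at 0h (adjusted p = 0.000964), and this call too was lost without WT 24h replicate 1 (adjusted p = 0.0898). Among 6 tested nucleotide sugar and sugar phosphate transporters 1 was called. Slc37a3 had 30.1 and 29.2 CPM in Null cells at 24h against 17 and 14.4 CPM in Null cells at 0h (0.90 ± 0.27, adjusted p = 0.0144), a call lost under 4 of 13 alternatives. WT cells had 30.8 and 34.9 CPM at 24h against 21.3 and 22.1 CPM at 0h, which was not called, although the libraries were separated in the same direction.

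Of 7 tested transporters of lipids, bile acids and organic ions, 3 were higher and 1 lower at 24h in Null cells, and 1 was lower in WT cells. Slc27a4, which takes up fatty acids and activates them, had 34.5 and 29.2 CPM in Null cells at 24h against 17.6 and 14.4 CPM in Null cells at 0h (0.98 ± 0.26, adjusted p = 0.00691), which DESeq2, thinning and 2 of the leave-outs did not call. WT cells stood at 37 and 45 CPM at 24h and 36.7 and 35.1 CPM at 0h, so the Null 0h libraries were below the other 6. The 0h difference of -1.14 ± 0.26 was called (adjusted p = 0.00438), and did not pass with Null 0h replicate 2 left out (adjusted p = 0.0547). Slc22a17, a receptor for lipocalin-bound iron in the organic cation family, had 28.6 and 33.9 CPM in Null cells at 24h against 72.2 and 46.7 CPM at 0h (-0.97 ± 0.21, adjusted p = 0.000943). It no longer passed when Null 0h replicate 1 was left out (adjusted p = 0.187). Slc22a23, a member of that family with no assigned substrate, was higher at 24h in Null cells (0.73, adjusted p = 0.0209), and lost that call under 5 of 13 alternatives. Among the scaffold proteins that share the symbol, Slc9a3r1 was lower at 24h in both lines, with 52.2 and 51.2 CPM in Null and 54.3 and 45 CPM in WT cells, against 76 and 75.4 CPM in Null and 72.8 and 70.1 CPM in WT cells at 0h. These calls were lost under 6 of 13 alternatives in Null and 5 of 13 in WT cells.

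Vitamin and cofactor transporters held 9 tested members, with 1 lower at 24h in each line. Slc23a2, which takes up ascorbate, had 12.8 and 12.6 CPM in Null cells at 24h against 29.5 and 24.2 CPM in Null cells at 0h (-1.09 ± 0.30, adjusted p = 0.00786), lost under 4 of 13 alternatives. Slc46a3, a lysosomal member of the folate transporter family, was the member called in WT cells (-1.76, adjusted p = 0.00517), lost under 3. Slc44a2, a choline transporter, was lower in Null than in WT cells at 24h, with 19.2 and 14.6 CPM in Null against 33.9 and 30.4 CPM in WT cells (-0.92 ± 0.24, adjusted p = 0.014), lost under 4. Slc23a1, the other ascorbate transporter, was the 1 vitamin transporter called higher in Null than in WT cells at 24h. It had 27.6 and 23.9 CPM in Null cells against 13.1 and 17.1 CPM in WT cells (0.82 ± 0.26, adjusted p = 0.0448). That call was lost under 8 of 13 alternatives, with adjusted p-values up to 0.99.

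Mitochondrial carriers held 29 tested members, with 2 higher and 2 lower at 24h in Null cells and 1 higher and 2 lower in WT cells. None was called in both lines. The ADP/ATP carrier Slc25a5 was the most abundant member, with 29.4% to 34.3% of the class sum in the EpiSC groups. It had 887 and 974 CPM in Null cells at 24h against 974 and 1084 CPM in Null cells at 0h, and 776 and 916 CPM in WT cells at 24h against 992 and 1073 CPM in WT cells at 0h. The WT difference of -0.29 ± 0.10 was called (adjusted p = 0.042) but lost under 8 of 13 alternative settings. Reads of Slc25a5 may be shared with near-identical copies, so its level is uncertain. The other ADP/ATP carrier, Slc25a4, had 278 and 300 CPM in Null cells at 24h against 219 and 216 CPM in Null cells at 0h (0.41 ± 0.12, adjusted p = 0.0176), a call lost under 4 of 13 alternatives. Slc25a39, which imports glutathione into mitochondria, had 315 and 305 CPM in Null cells at 24h against 462 and 474 CPM in Null cells at 0h (-0.59 ± 0.11, adjusted p = 0.000121). Slc25a51, the carrier of NAD, had 72.4 and 63.8 CPM in Null cells at 24h against 106 and 107 CPM at 0h (-0.64 ± 0.17, adjusted p = 0.00543), which did not pass without Null 24h replicate 2 (adjusted p = 0.0655). The mitochondrial iron importer Slc25a28 was higher at 24h in Null cells (1.04, adjusted p = 0.0209) and the ornithine carrier Slc25a15 in WT cells (0.57, adjusted p = 0.0453), and each lost its call under 4 of 13 alternatives, DESeq2 included.

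In Null against WT cells at 24h 5 of the 29 tested mitochondrial carriers were lower and none was higher, where 4.35% of all genes were called lower. They were Slc25a39 (-0.38, adjusted p = 0.0248), the citrate carrier Slc25a1 (-0.43, adjusted p = 0.0326), the aspartate and glutamate carrier Slc25a12 (-0.58, adjusted p = 0.0293), the ATP-magnesium and phosphate carrier Slc25a23 (-0.94, adjusted p = 0.0235) and Slc25a46 of the outer membrane (-0.62, adjusted p = 0.0459). All 5 calls were lost with DESeq2 and without Null 24h replicate 1, and each was lost under 4 to 6 of 13 alternatives. The class sum at that time was 2754 ± 67.3 CPM in Null and 2882 ± 46.6 CPM in WT cells. Fibroblast markers, of which 8 were listed, summed to 96.6 and 116 CPM in Null and 128 and 160 CPM in WT cells at 24h. At 0h they summed to 127 and 116 CPM in Null and 275 and 227 CPM in WT cells. Of 5 tested markers, 0 were called higher and 1 lower in Null than in WT cells at each time. Their median log2 difference was 0.26 at 24h and -0.49 at 0h. At 24h the lower sum in Null cells was therefore not shared by most tested markers. Their part in the differences between Null and WT cells was not tested. The lines were derived on feeder fibroblasts and then grown without them, per the labels.

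The responses of the lines were set side by side over the 135 tested members, and they share no library. The Pearson correlation of the 24h log2 differences was 0.672 over members and 0.772 over all 9703 tested genes, a description across genes, which are not replicates. Of 43 members called in either line 37 had the same sign in both, against 2219 of 2429 over all tested genes. The 11 called in both all went the same way, 3 higher and 8 lower, which is 35.5% of the Null calls and 47.8% of the WT calls. Over all genes the shares were 55.9% and 61.9%, and 1007 of the 1010 genes called in both lines went the same way. A further 20 were called in Null cells only and 12 in WT cells only, which does not show that the lines differed there. The test of the difference between responses called 0 members, against 0.567% of all genes. At an unadjusted p below 0.05 it gave 22 members, 16.3% of those tested against 10.2% of all genes, and DESeq2 called 0.

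**Figure D4:**
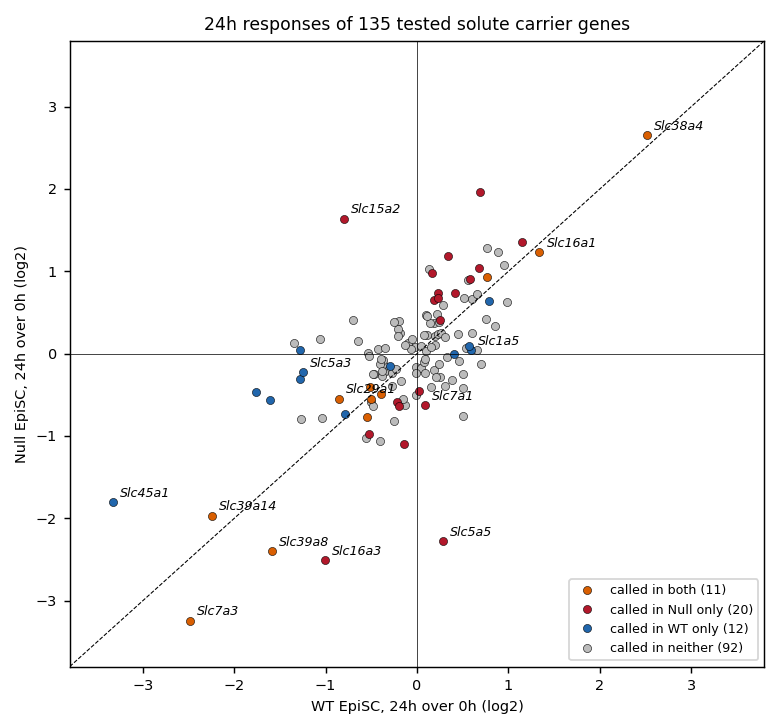
Log2 difference between 24h and 0h in Null EpiSCs (vertical axis) against the same in WT EpiSCs (horizontal axis) for 135 tested members, coloured by the line in which they were called, with a dashed line of equal response. Slc7a3, Slc39a14, Slc39a8, Slc38a4 and Slc16a1 lie far out in the same direction in both lines, and Slc5a5 and Slc15a2 lie on opposite sides of 0 in the lines.

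A list of genes that respond to amino acid shortage through Atf4 or make serine and asparagine, whose targets include several amino acid transporters, was read beside them, with 18 of 20 genes tested. At 24h 2 were higher and 8 lower in Null cells and 2 higher and 5 lower in WT cells, with median differences of -0.31 and -0.17 against 0.0102 and -0.0083 over all genes. Of all genes 9.18% were called higher and 9.44% lower in Null cells, and 8.19% higher and 8.63% lower in WT cells. The 2 that were higher were the same in both lines. Ddit4, an inhibitor of mTORC1 signalling, had 54.2 and 61.1 CPM in Null and 42.9 and 38.7 CPM in WT cells at 24h, against 23.2 and 18 CPM in Null and 26.0 and 23.7 CPM in WT cells at 0h (1.45 in Null, adjusted p = 9.36e-06, and 0.72 in WT cells, adjusted p = 0.0141). Vldlr, a lipoprotein receptor, had 21.2 and 21.9 CPM in Null and 21.4 and 30.4 CPM in WT cells at 24h, against 9.42 and 8.08 CPM in Null and 10.6 and 8.48 CPM in WT cells at 0h (1.27 in Null, adjusted p = 0.00626, and 1.38 in WT cells, adjusted p = 0.000731). Among those that were lower, Trib3, a pseudokinase induced by Atf4, had 14.3 and 17.9 CPM in Null and 22.1 and 21.5 CPM in WT cells at 24h, against 34.5 and 30.5 CPM in Null and 48.9 and 41.3 CPM in WT cells at 0h. Mthfd2, a mitochondrial enzyme of folate metabolism, had 70.0 and 67.1 CPM in Null and 72.6 and 75.4 CPM in WT cells at 24h, against 120 and 130 CPM in Null and 130 and 121 CPM in WT cells at 0h. Both genes were lower in every 24h library than in every 0h library. Chac1, which degrades glutathione, was lower in Null than in WT cells at 24h, with 7.39 and 8.64 CPM in Null against 24.6 and 21.5 CPM in WT cells (-1.55, adjusted p = 0.00212). Slc7a11 and Slc3a2, which are known targets of Atf4, stood lower in Null than in WT cells at 24h as well. For Slc3a2 the difference was -0.32 ± 0.10 (adjusted p = 0.0447), and the call was lost in 9 of 13 alternative settings. Slc7a5 (0.28, edgeR adjusted p = 0.659) and Slc38a2 (0.16, adjusted p = 0.422) lay in the other direction and were not called. Of the 18 tested genes of the list 0 were higher and 3 lower in that comparison, where 3.7% of all genes were called higher and 4.35% lower. The part of Atf4 in these differences was not tested.

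In E8.0 tailbuds no member was called in any comparison, out of 65 tested. The background was 2.9% of 6003 genes in Triple against WT, 0.133% in Cdx1-4 against WT and 2.02% in Triple against Cdx1-4. At an unadjusted p below 0.05 there were 4 members in Triple against WT, 6.15% against 12.0% of all genes. There were 5 in Cdx1-4 against WT, 7.69% against 7.63%, and 3 in Triple against Cdx1-4, 4.62% against 10.9%. DESeq2 called 0 in each. The lowest adjusted p-values were 0.142 for Slc39a4 in Triple against WT, 0.378 for Slc4a2 in Cdx1-4 against WT and 0.105 for Slc1a5 in Triple against Cdx1-4. Slc39a4, Slc29a1, Slc4a2, Slc1a5 and Slc13a4 were picked for description in tailbuds after their values were seen.

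The zinc importer Slc39a4 had 81, 91.3 and 64.9 CPM in Triple and 69, 50.5 and 52 CPM in Cdx1-4, against 56.4, 53.3 and 31.6 CPM in WT tailbuds. Triple libraries lay above all WT libraries, a difference of 0.67 ± 0.24 that did not pass. Slc29a1 had 54.9, 67.9 and 46.6 CPM in Triple and 46.9, 43.9 and 42 CPM in Cdx1-4, against 38.8, 27.9 and 34.1 CPM in WT. Both mutant groups were fully above WT, and the difference of Triple from WT was 0.68 ± 0.27 (adjusted p = 0.212). Among the named members, Slc20a1, Slc22a23 and Slc7a1 also had no overlap with WT in either mutant group, and were not called. The share of all 6003 tested genes without overlap is not given here. With 3 libraries per group, separation in tailbuds is therefore a description and adds no support. The anion exchanger Slc4a2 had 28.8, 39.8 and 25 CPM in Triple and 23.4, 15.9 and 18 CPM in Cdx1-4, against 41.1, 35.5 and 29.2 CPM in WT. Cdx1-4 lay below the other groups, by -0.91 ± 0.31 against WT. Slc1a5 had 47.1, 65.5 and 51.6 CPM in Triple and 33.8, 19.9 and 38 CPM in Cdx1-4, against 36.4, 50.7 and 29.2 CPM in WT, with Triple above Cdx1-4 by 0.87 ± 0.28 and overlapping WT.

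In tailbuds Slc25a39 was the most abundant mitochondrial carrier, with 29.2% to 32.0% of the class sum, and the glutamine and alanine importer Slc38a2 was the amino acid transporter with the highest mean level over all libraries. Slc25a39 had 800, 899 and 503 CPM in Triple and 806, 571 and 696 CPM in Cdx1-4, against 851, 728 and 786 CPM in WT. Slc38a2 had 288, 382 and 305 CPM in Triple and 311, 353 and 334 CPM in Cdx1-4, against 304, 223 and 321 CPM in WT. The groups overlapped in both genes. Slc16a3 and Slc16a1 overlapped as well. Slc16a3 ranged from 59.9 to 112 CPM in Triple and 49.2 to 98 CPM in Cdx1-4, against 88.8 to 124 CPM in WT, and Slc16a1 from 63.2 to 76.6 CPM in Triple and 66 to 97.6 CPM in Cdx1-4, against 53.5 to 73.6 CPM in WT.

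The 5 members that reached the minimum only in tailbuds were Slc2a2, Slc13a4, Slc38a8, Slc39a5 and Slc43a3. Slc13a4, a sodium and sulfate cotransporter, had 49.7, 74.9 and 51.6 CPM in Triple and 32.5, 42.5 and 8 CPM in Cdx1-4, against 42.3, 60.9 and 34.1 CPM in WT. Triple lay above Cdx1-4 in every library, by 0.97 ± 0.32 (adjusted p = 0.133). Slc2a2, the glucose transporter of liver and gut, had 5.23, 25.7 and 16.6 CPM in Triple and 20.8, 12 and 2 CPM in Cdx1-4, against 14.1, 25.4 and 17 CPM in WT, and was not tested. Markers of visceral endoderm and gut, all 8 of them seen, summed to 988, 1191 and 1069 CPM in Triple and 1002, 792 and 494 CPM in Cdx1-4, against 899, 1000 and 691 CPM in WT tailbuds. In EpiSCs they summed to 10.7 to 38.4 CPM. The Cdx1-4 library blue 2 was the lowest for Slc13a4, Slc2a2 and these markers. Blood and endothelial markers summed to 339 CPM in Cdx1-4 blue 1, against 9.11 to 73.2 CPM in the other tailbud libraries. The part of either marker list in these values was not tested.

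**Figure D5:**
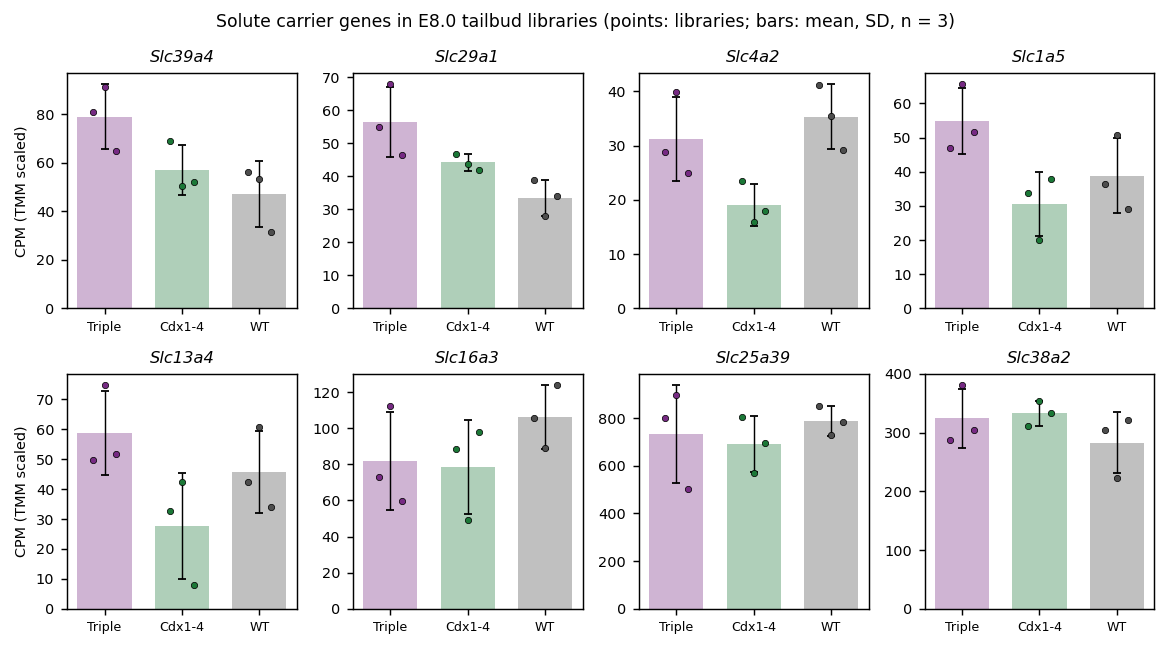
CPM (vertical axes, linear, each from 0) of 8 solute carrier genes in the 3 tailbud groups; points are libraries, bars means and lines SD (n = 3). Slc39a4 and Slc29a1 are higher in every Triple than in every WT library and Slc4a2 is lowest in Cdx1-4, while Slc16a3, Slc25a39 and Slc38a2 overlap between groups; no difference passed the test.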

How the data were processed

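The deposited tables hold the authors' counts per gene, mapped to mm10 per the labels, from 10 ng RNA and 75-base reads; aligner, counter, strand use and molecular identifiers are not given in the sources used here. Each table was fitted alone with edgeR 4.0.16 in R 4.3.3 (filterByExpr, TMM scaling, glmQLFit with robust estimation, glmQLFTest, 1 mean per group), with p-values adjusted by Benjamini-Hochberg over all 9703 or 6003 tested genes. A member was called at an adjusted p below 0.05. The residual degrees of freedom were 4 and 6. Standard errors come from the F statistic, and the method was tested on simulated data. CPM and log2 differences use TMM-scaled totals. Alternatives were DESeq2 1.42.0, its size factors in edgeR, no filter, thinning to equal totals, leaving out each library, a replicate block in EpiSCs and the colour term in tailbuds, with a block of same-named tailbud columns added after seeing the data. Spike-in entries (2 counts and 1 count) were left out. Replicates differed by more than sampling noise, so none was merged.

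The members, their classes and the gene lists were chosen with earlier results of these data known. Named members are, per class, up to 3 called at 24h with the largest rise or fall at 20 CPM or more, all called in other comparisons up to 10, the most abundant, and Slc3a2 with its light chains. Members outside this rule (Slc38a4, Slc15a2, Slc38a1, Slc4a4, Slc45a1, Slc46a3, Slc23a1, Slc25a1, Slc25a12, Slc25a46 and tailbud genes) were named after their values were seen. Positions and promoters are RefSeq's on GRCm38.p6. Same-numbered EpiSC libraries of different groups deviated with correlations of 0.007 to 0.087, so the numbers were not used to pair them. Counting noise lowers such correlations, so they cannot exclude a shared batch.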

Additional observations from a re-analysis of the deposited data

How the results depend on the processing

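Of the calls, 10 of 31 in the Null 24h response, 6 of 23 in the WT 24h response, 3 of 15 between the lines at 24h and 4 of 9 at 0h kept their call under every alternative that gave a value (13, or 12 for Slc5a5 at 0h). They include Slc7a3, Slc38a4, Slc16a1, Slc39a8 and Slc39a14 in both responses, and Slc7a1, Slc1a5 and Slc1a3 in Null against WT at 24h. DESeq2 gave 12 calls in the WT response, 16 in the Null response and 5 in Null against WT at 24h, and thinning gave 13 in the WT response and 7 in Null against WT at 24h. Leaving out 1 library gave 17 to 33 in the Null response (fewest without Null 0h replicate 1), 13 to 26 in the WT response (fewest without WT 24h replicate 1), 7 to 15 in Null against WT at 24h (fewest without Null 24h replicate 1), 6 to 13 at 0h, 0 to 2 in the interaction, 0 to 1 in Triple against Cdx1-4 and 0 to 0 in the other tailbud comparisons. Without the filter the interaction had 1 call. On plain CPM the sum over transporters was 6274 in Null cells at 24h, 7108 in WT cells at 24h and 7921 in WT cells at 0h. No log2 difference of a called member changed sign. The causes of these changes were not tested. 2 or 3 libraries per group and tailbud totals of at most 854852 counts limit what small differences could be detected.

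With the replicate number as a block there were 33 calls in the Null response, 28 in the WT response and 16 between the lines at 24h. There were 13 at 0h and 1 in the interaction. Whether the numbers pair the libraries is not settled. In tailbuds the labels' replicate numbers could not be used to pair libraries, because the columns carry colours in their place. A block of same-named tailbud columns, chosen after seeing the data, gave 1 call in Triple against Cdx1-4, Slc13a4, and 0 in the other comparisons. Same-named libraries deviated with correlations of -0.091 to 0.051. These give no sign that the names pair the libraries, but with counting noise they cannot exclude it. With the colour as a term, or in blue libraries alone, 0 members were called in tailbuds.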

Other observations

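Ion pumps set the gradients that many solute carriers draw on, and 23 of the 27 listed were tested in EpiSCs. At 24h 5 were higher and 1 lower in Null cells and 4 higher and 1 lower in WT cells, with median log2 differences of 0.21 and 0.25, against 0.0102 and -0.0083 over all genes. Of all genes 9.18% were called higher and 9.44% lower in Null cells, and 8.19% higher and 8.63% lower in WT cells. Among the pumps that were higher in both lines was Atp6v0e, a subunit of the proton pump of acidic organelles, with 157 and 150 CPM in Null and 141 and 115 CPM in WT cells at 24h, against 112 and 116 CPM in Null and 89.3 and 101 CPM in WT cells at 0h (edgeR adjusted p = 0.0302 in Null and 0.0251 in WT cells). Atp1b3, a beta subunit of the sodium and potassium pump, had 167 and 175 CPM in Null and 176 and 182 CPM in WT cells at 24h, against 117 and 145 CPM in Null and 144 and 129 CPM in WT cells at 0h (adjusted p = 0.0413 in Null and 0.0353 in WT cells). Atp1b1, another beta subunit of that pump, was lower at 24h, with 14.3 and 13.3 CPM in Null and 12.8 and 11.4 CPM in WT cells, against 29.5 and 22.5 CPM in Null and 22.9 and 22.6 CPM in WT cells at 0h (edgeR adjusted p = 0.018 in Null and 0.0196 in WT cells). For Atp1b1 every 24h library lay below every 0h library. No pump was called in the tailbud comparisons.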
